A study of Homo sapiens with 10 samples.

Results

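Voltage-gated calcium channels open when the membrane depolarises and let calcium into the cell. In heart muscle the L-type current through the pore encoded by CACNA1C triggers the release of stored calcium that drives contraction, and the T-type and CACNA1D pores, which open at more negative voltages, are known for their part in pacemaking and in the developing heart. Beta subunits bind the pore from inside the cell and bring it to the membrane, alpha2delta subunits sit on the outside and raise surface levels and current, and STAC3 is a skeletal muscle adaptor that couples the skeletal L-type pore to the ryanodine receptor. The 10 genes described here were given by name: the L-type pores CACNA1C and CACNA1D, the T-type pores CACNA1G and CACNA1H, the beta subunits CACNB1, CACNB2 and CACNB3, the alpha2delta subunits CACNA2D1 and CACNA2D2, and STAC3. They are 10 of the 78932 genes in the count table. All 10 had enough counts to be tested.

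RNA came from beating cardiomyocytes. They had been differentiated from the established human embryonic line H1. Knockdown cells received 50 nM of GapmeR against the RNA named CLIPPER, and control cells received 50 nM of a control GapmeR. A GapmeR is an antisense oligonucleotide that directs RNase H to its paired RNA. Transfection was on day 9 of differentiation and cells were collected 48 hours later, with 5 libraries of total RNA in each group. All cells are of 1 line, and the labels do not say whether the replicates were separate cultures or differentiations, so the p-values measure the spread between these libraries, which may be technical. The annotation used here has no gene named CLIPPER, and the level of the target was not analysed here.

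Libraries held 32.9 to 45.1 in units of 1e6 counts. The 10 listed cardiomyocyte markers were present in every library, with a summed level of 10700 to 17202 CPM in knockdown and 27161 to 37464 CPM in control libraries (CPM, counts per 1e6 after scaling of library sizes). They fell unevenly. In the test used below 7 of the 10 passed as lower, against 39.6% of all tested genes (5 under upper-quartile scaling, 9 without knockdown replicate 4). MYL2, MYL7 and NPPA did not pass (log2 fold changes, knockdown over control, -0.265, -0.47 and -0.50), and the call of NKX2-5 was lost in 4 of 20 other settings. In bulk RNA, fewer cells of a type and less RNA per cell cannot be told apart, and this applies to every level given here. Knockdown replicates 1 and 2 were normalised to larger library sizes than their totals (46.4 and 47.1 against 39.9 and 42.1 in units of 1e6), and replicate 2 stood nearest to the controls for most falling genes described here. Genes of the mitochondrial genome took 10.9% to 17.5% of counts in knockdown and 10% to 12.2% in control libraries.

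The L-type pores have a short stretch in the linker after the first repeat, the alpha interaction domain, that holds the beta subunit. Its coding bases are shown for CACNA1C and CACNA1D, because these pores and their main beta subunit fell furthest. Capitals mark the bases at which the stretches differ. Both are read 5′ to 3′ on the plus strand of GRCh38 from GENCODE release 44 transcripts, and each lies within exon 9 of the canonical transcript.
CACNA1C, chr12:2512876-2512929: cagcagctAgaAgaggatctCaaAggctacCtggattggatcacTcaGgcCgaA
CACNA1D, chr3:53702705-53702758: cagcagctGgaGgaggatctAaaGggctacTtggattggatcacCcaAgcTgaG
The stretches share 45 of 54 bases (83.3%). The protein pattern that found them had 0 matches in the canonical transcripts of the T-type pores CACNA1G and CACNA1H. Of all words of 50 bases in the transcripts, 0.666% of those of CACNA1C and 0.826% of those of CACNA1D also occur on the same strand of another gene, and 3.63% of those of CACNA1C and 7.81% of those of CACNA1D on the opposite strand of one.

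In the knockdown, the 7 genes for the pores, CACNB2 and the alpha2delta subunits fell, and CACNB1, CACNB3 and STAC3 rose. All 10 passed edgeR's quasi-likelihood test (adjusted p over 21033 genes below 0.05), a test that 79.7% of all tested genes passed. Of all tested genes 39.6% passed as lower and 40.1% as higher. The groups did not overlap in any of the 10 genes, against 67.5% of all tested genes. The median log2 fold change (knockdown over control) of the 10 genes was -1.52, against 0.0056 over all tested genes. Under upper-quartile scaling that all-gene median was 0.20, so each change is read against the middle of all genes. A fall of at least 2-fold was found in 7 of the 10 genes and in 24.2% of all tested genes, and a rise of at least 2-fold in 1 of the 10 and in 24.3%.

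**Figure D1:**
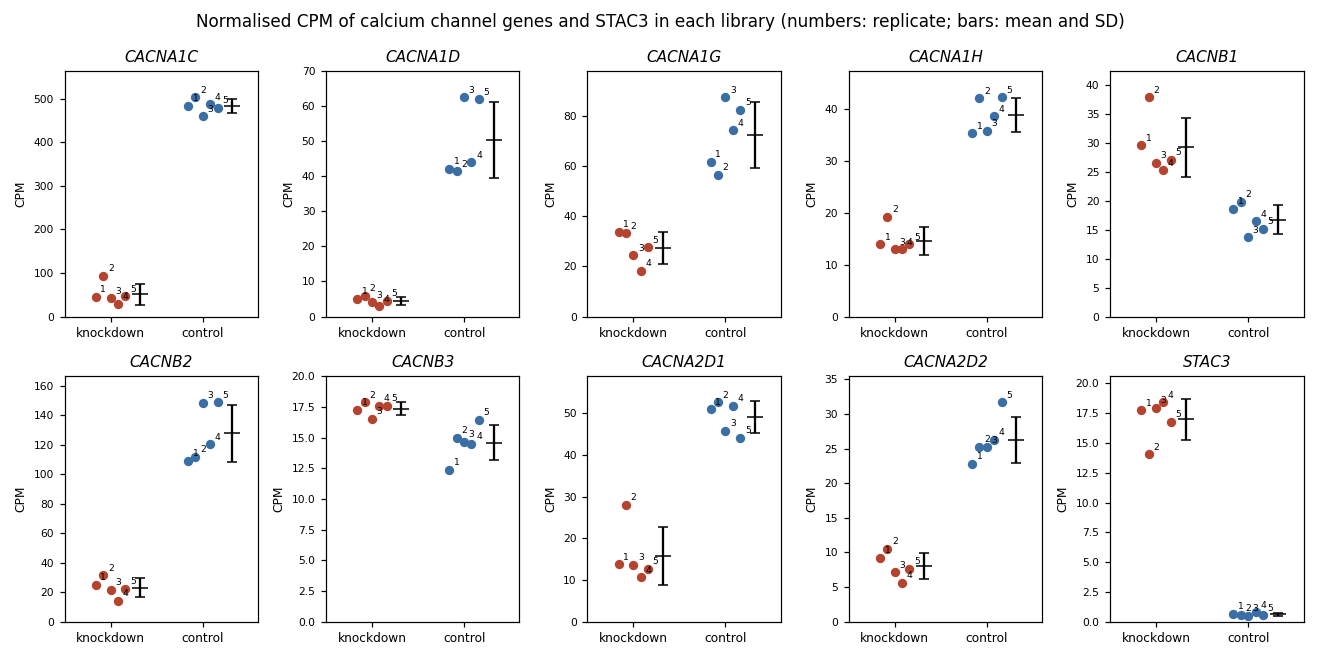
Normalised CPM (linear axes from 0) of each gene in the 5 knockdown libraries (red, left) and the 5 control libraries (blue, right), with small numbers for the replicate and bars for the mean and SD. CACNA1C has 29.2 to 93.7 CPM in knockdown and 460 to 504 CPM in control libraries, while STAC3 has 14.1 to 18.4 CPM in knockdown and 0.507 to 0.807 CPM in control libraries.

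CACNA1C (ENSG00000151067, chromosome 12, 1970772 to 2697950, plus strand, GRCh38) encodes the main L-type pore of heart muscle. Its level was 44.8, 93.7, 41.5, 29.2 and 46.7 CPM in knockdown libraries 1 to 5, against 484, 504, 460, 488 and 479 CPM in control libraries 1 to 5. The highest knockdown library, replicate 2, was still 4.91-fold below the lowest control. Means were 51.2 ± 24.7 CPM in knockdown and 483 ± 15.9 CPM in control libraries (SD, n = 5 each), a 9.43-fold fall (log2 fold change -3.24 ± 0.264 SE, adjusted p = 3.97e-07 in edgeR's quasi-likelihood test). The spread was unequal: the SD was 48.3% of the mean in knockdown and 3.29% in control libraries. An 8-fold fall or more that passed the test was found in 157 genes, or 0.746% of those tested, and both L-type pores were among them.

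CACNA1D (ENSG00000157388, chromosome 3, 53328963 to 53813733, plus strand) encodes the L-type pore of pacemaker and atrial cells, which opens at more negative voltages than that of CACNA1C. It had 5.13, 5.93, 4.01, 2.97 and 4.53 CPM in knockdown libraries, against 42.1, 41.4, 62.5, 43.96 and 61.9 CPM in control libraries. The controls fell into a higher pair (replicates 3 and 5) and a lower set of 3, and every knockdown library lay at least 6.99-fold below the lowest of them. The log2 fold change was -3.47 ± 0.20 (SE, adjusted p = 4.59e-08 in edgeR's quasi-likelihood test). CACNA1D shares 1399 of its 19199 exon bases with CHDH, a choline dehydrogenase gene on the other strand. CHDH had 5.28 ± 1.00 CPM in knockdown and 8.02 ± 1.09 CPM in control libraries (SD, n = 5 each). The sources used here do not give the strand setting of the counting. The nearest coding genes that do not overlap CACNA1D, TKT and IL17RB, had log2 fold changes of 0.06 (adjusted p = 0.443) and 0.41 (adjusted p = 0.00693).

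Both T-type pore genes fell by a like amount, and by less than the L-type pores. CACNA1G (ENSG00000006283, chromosome 17, 50560715 to 50627474, plus strand) had 33.8, 33.2, 24.5, 18.3 and 27.7 CPM in knockdown libraries, against 61.7, 56.6, 87.5, 74.3 and 82.4 CPM in control libraries. Its highest knockdown library was replicate 1, and its lowest control still lay 1.67-fold above that. CACNA1H (ENSG00000196557, chromosome 16, 1153106 to 1221771, plus strand) had 13.9, 19.3, 12.97, 12.95 and 13.9 CPM in knockdown libraries, against 35.3, 42.0, 35.8, 38.6 and 42.3 CPM in control libraries. Of the knockdown libraries 4 lay within 1 CPM of each other and replicate 2 stood above them. The log2 fold changes were -1.40 ± 0.175 for CACNA1G and -1.41 ± 0.121 for CACNA1H (SE), with adjusted p of 1.16e-05 and 5.75e-07 in edgeR's quasi-likelihood test. These genes share 16 of their 50-base words with each other, 0.151% of those of CACNA1G.

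The beta subunits moved in both directions. CACNB2 (ENSG00000165995, chromosome 10, 18140424 to 18543557, plus strand), the main beta subunit of heart muscle, had 25.2, 31.7, 21.9, 14.1 and 22.3 CPM in knockdown libraries, against 109, 112, 149, 121 and 149 CPM in control libraries. Its log2 fold change was -2.47 ± 0.19 (SE, adjusted p = 2.65e-07), which is 5.54-fold lower. All knockdown libraries lay at least 3.44-fold below all controls. On the other strand, ENSG00000240291 and ENSG00000235020 share 742 and 596 of the 11209 exon bases of CACNB2. They had 0.516 and 0.474 CPM in knockdown, against 1.68 and 0.72 CPM in control libraries. Of the 50-base words of CACNB2, 10% occur on the opposite strand of another gene, and the strand setting of the counting is not given.

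CACNB1 (ENSG00000067191, chromosome 17, 39173453 to 39197702, minus strand), the beta subunit of the skeletal muscle channel, which is also found in heart, had 29.5, 37.9, 26.5, 25.2 and 27.0 CPM in knockdown libraries, against 18.6, 19.8, 13.6, 16.4 and 15.1 CPM in control libraries. It rose 1.75-fold (log2 fold change 0.81 ± 0.135 SE, adjusted p = 0.000136), and replicate 2 was the highest of the knockdown libraries here too. CACNB3 (ENSG00000167535, chromosome 12, 48813794 to 48828941, plus strand), a beta subunit best known from brain and smooth muscle, had 17.3, 17.9, 16.5, 17.6 and 17.6 CPM in knockdown libraries, against 12.4, 15.0, 14.6, 14.5 and 16.5 CPM in control libraries. The lowest knockdown and the highest control library all but touched. The rise of CACNB3 was 1.19-fold (log2 fold change 0.25 ± 0.0888 SE, adjusted p = 0.0203), and it did not pass without any filter on low counts (adjusted p = 0.155) or without control replicate 1, 2, 3 or 4 (adjusted p 0.0512 to 0.0846).

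Both alpha2delta genes fell about 3-fold. CACNA2D1 (ENSG00000153956, chromosome 7, 81946444 to 82443956, minus strand), the alpha2delta subunit of heart and skeletal muscle, had 13.8, 28.0, 13.7, 10.7 and 12.7 CPM in knockdown libraries, against 50.9, 52.6, 45.8, 51.7 and 44.03 CPM in control libraries. Knockdown replicate 2 stood above the other knockdown libraries and stayed 1.57-fold below the lowest control. CACNA2D2 (ENSG00000007402, chromosome 3, 50362613 to 50504244, minus strand) had 9.23, 10.5, 7.15, 5.63 and 7.68 CPM in knockdown libraries, against 22.8, 25.2, 25.1, 26.2 and 31.7 CPM in control libraries. The falls were 3.10-fold for CACNA2D1 (log2 fold change -1.63 ± 0.223 SE, adjusted p = 2.46e-05) and 3.25-fold for CACNA2D2 (-1.70 ± 0.158 SE, adjusted p = 1.05e-06). A long non-coding gene on the other strand of CACNA2D2, ENSG00000271858, shares 606 of its 6508 exon bases and rose, with 1.31 ± 0.316 CPM in knockdown and 0.0911 ± 0.0393 CPM in control libraries (SD, n = 5 each, log2 fold change 3.76, adjusted p = 4.45e-07).

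STAC3 (ENSG00000185482, chromosome 12, 57243453 to 57251188, minus strand) was the most abundant of the 10 genes per exon length in knockdown and the least abundant in control libraries. It had 17.7, 14.1, 17.9, 18.4 and 16.8 CPM in knockdown libraries, against 0.687, 0.534, 0.507, 0.807 and 0.532 CPM in control libraries. These were 3269 counts over the knockdown and 118 over the control libraries, and the lowest knockdown library lay 17.4-fold above the highest control. The log2 fold change was 4.78 ± 0.153 (SE, adjusted p = 4.23e-09), which is 27.5-fold, at rank 3 of 21033 genes by p and rank 122 by the size of the rise. Its lowest knockdown level was in replicate 2. A rise of at least 8-fold that passed the test was found in 4.26% of tested genes.

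Of the genes beside STAC3, 1 was tested, and it fell. R3HDM2, the next coding gene 2573 bases away at higher coordinates, fell to 11.7 ± 4.85 CPM in knockdown, against 54.7 ± 2.25 CPM in control libraries (SD, n = 5 each, log2 fold change -2.22, adjusted p = 2.09e-06). NDUFA4L2, 2737 bases away on the other side, had too few counts to be tested (47 in all knockdown and 30 in all control libraries). An unnamed coding locus on the same strand, ENSG00000258830, shares 225 of the 2091 exon bases of STAC3 and 7.88% of its 50-base words. It had 31 counts in all knockdown and 0 in all control libraries, so reads in the shared part are uncertain, and the sources used here do not say how the counting treated them.

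STAC3 is a gene of skeletal muscle, so the listed skeletal muscle markers are given beside it. Of 17 listed, 16 were analysed and 8 were tested, of which 5 rose and 0 fell, with a median log2 fold change of 0.55. For comparison, 40.1% of all tested genes passed as higher and 39.6% as lower. MYOG, the myogenic factor myogenin, had 1.86 ± 0.169 CPM in knockdown and 0.282 ± 0.0918 CPM in control libraries (SD, n = 5 each, log2 fold change 2.695, adjusted p = 4.09e-07). The fast troponin genes TNNI2 and TNNT3 rose to 0.596 and 0.909 CPM in knockdown, against 0.172 and 0.34 CPM in control libraries, and CKM, the muscle creatine kinase gene that heart also uses, to 303 CPM in knockdown, against 199 CPM in control libraries. These rising genes are short. MYOG and TNNI2 are among coding genes spanning 1 to 3 kb, of which 74.8% passed as higher (median log2 fold change 0.965). TNNT3 and CKM are among those of 10 to 30 kb, of which 48.9% passed as higher (median 0.27). ACTN3 and MYH8 did not pass, with log2 fold changes of -0.16 and -0.58. ACTN3 passed as lower without knockdown replicate 1 (log2 fold change -0.32) and with knockdown replicates 1 and 2 left out (-0.39). The defining factors MYOD1, MYF5 and PAX7 had 4, 1 and 0 counts in all knockdown and 1, 0 and 2 counts in all control libraries. The fast myosin gene MYH1 had 4 and 6, and the listed marker MYMK had 1 and 11. The summed level of the list was 283 to 339 CPM in knockdown and 160 to 252 CPM in control libraries, most of it CKM. Among the partners of STAC3 in skeletal muscle, CACNB1 rose, as given above. CACNA1S, the skeletal L-type pore, had 1.39 ± 0.218 CPM in knockdown and 1.14 ± 0.279 CPM in control libraries (SD, n = 5 each, log2 fold change 0.28, adjusted p = 0.207), and passed as higher under upper-quartile scaling (log2 fold change 0.48, adjusted p = 0.0403). RYR1, the skeletal ryanodine receptor, had 1.31 ± 0.463 CPM in knockdown and 2.02 ± 0.354 CPM in control libraries (log2 fold change -0.61, adjusted p = 0.0358, not passing in 6 of 20 other settings). The part of other cell types in the level of STAC3 was not tested.

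Because longer transcripts give more reads, levels were compared between genes as CPM per kb of exon (all exons of the gene merged). In control libraries the order was CACNA1C (18.9), CACNB2 (11.4), CACNA1G (7.21), CACNA2D1 (5.34), CACNA1H (4.50), CACNA2D2 (4.03), CACNA1D (2.62), CACNB1 (2.36), CACNB3 (2.04) and STAC3 (0.293 CPM per kb). The libraries of neighbours in this order overlapped from CACNA1G through CACNA2D2 and from CACNA1D through CACNB3. In knockdown libraries the order was STAC3 (8.12), CACNB1 (4.12), CACNA1G (2.73), CACNB3 (2.43), CACNB2 (2.05), CACNA1C (2.00), CACNA2D1 (1.72), CACNA1H (1.69), CACNA2D2 (1.24) and CACNA1D (0.235 CPM per kb). There only STAC3, CACNB1 and, at the lower end, CACNA1D were set apart from their neighbours. With the longest transcript as the length, the first, second and last places were the same in both groups and places between them changed, CACNA1D moving up to place 5 in control libraries.

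The make-up of each subunit class, as shares of these per-length levels, changed most for the beta subunits. CACNB2 made up 25.4%, 26.5%, 24.4%, 17.3% and 24.1% of the beta level in knockdown libraries, against 68.8%, 66.97%, 76.7%, 71.0% and 74.8% in control libraries. CACNB1 held 47.7% ± 1.64 in knockdown and 15.1% ± 3.56 in control libraries, and CACNB3 28.6% ± 3.78 in knockdown and 12.9% ± 0.886 in control libraries (SD, n = 5 each). The groups did not overlap in any of these 3 shares. The summed beta level was 8.61 ± 1.28 CPM per kb in knockdown and 15.8 ± 1.58 CPM per kb in control libraries.

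**Figure D2:**
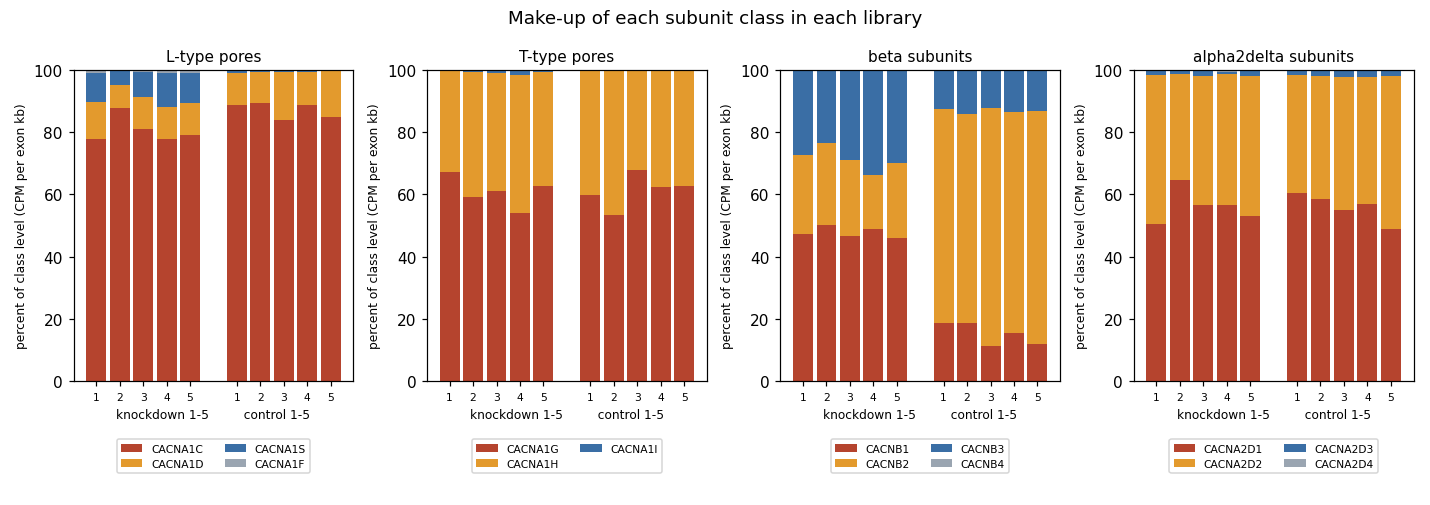
Share of each gene in the summed level of its subunit class (percent of CPM per exon kb), in knockdown libraries 1 to 5 (left bars of each panel) and control libraries 1 to 5 (right bars). The CACNB2 share is 17.3% to 26.5% in knockdown and 66.97% to 76.7% in control libraries, while the shares of CACNA1G and CACNA2D1 overlap between the groups.

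In the T-type and alpha2delta classes the shares of the leading gene overlapped between the groups, while the class sums were lower in knockdown libraries without overlap. CACNA1G made up 60.8% ± 4.88 of the T-type level in knockdown and 61.2% ± 5.15 in control libraries, and CACNA2D1 56.2% ± 5.28 of the alpha2delta level in knockdown and 55.9% ± 4.45 in control libraries (SD, n = 5 each). CACNA1D held 10.1% ± 1.65 of the L-type level in knockdown and 12.1% ± 2.58 in control libraries, with overlap. The skeletal pore CACNA1S, whose own level did not pass the test, held 8.54% ± 2.34 of the L-type level in knockdown and 0.725% ± 0.183 in control libraries. The summed L-type level was 2.45 ± 1.03 CPM per kb in knockdown and 21.7 ± 0.356 CPM per kb in control libraries, and the T-type sum was 4.47 ± 0.855 CPM per kb in knockdown and 11.7 ± 1.32 CPM per kb in control libraries. L-type pores thus held 34.4% ± 5.01 of the L- and T-type level together in knockdown and 65.0% ± 2.54 in control libraries, without overlap. For each unit of L-type level there were 3.80 ± 0.86 units of beta level in knockdown and 0.73 ± 0.07 in control libraries, and 1.26 ± 0.119 units of alpha2delta level in knockdown and 0.441 ± 0.014 in control libraries. These are ratios of RNA levels, not of subunits.

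The direction of change went with the length of the genes. The 7 falling genes span at least 66.8 kb and the 3 rising ones at most 24.2 kb from start to end of the annotated gene. Across the table long genes tended to fall and short genes to rise. Of tested coding genes, 93.6% of those of 300 to 1000 kb and 82.7% of those of 100 to 300 kb passed as lower. In the class of 30 to 100 kb 57% passed as lower and 23.2% as higher, and in that of 10 to 30 kb 29.1% and 48.9%. Of those of 3 to 10 kb 64.4% passed as higher. Each gene is therefore set beside the median of coding genes in its span class. Relative to the median log2 fold change of -2.06 of the 637 coding genes of 300 to 1000 kb, the log2 fold change was -1.42 for CACNA1D, -1.18 for CACNA1C, -0.41 for CACNB2 and 0.42 for CACNA2D1. Relative to the median of -0.48 of genes of 30 to 100 kb, it was -0.92 for CACNA1G and -0.93 for CACNA1H. CACNA2D2 was at -0.40 relative to the median of -1.30 of genes of 100 to 300 kb. CACNB1 was at 0.54 and CACNB3 at -0.02 relative to the median of 0.27 of genes of 10 to 30 kb. STAC3 was at 4.08 relative to the median of 0.71 of genes of 3 to 10 kb. The genes of the other lists named here differ in span too, and their changes are read beside the same medians. The part of gene length in these changes was not tested.

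**Figure D3:**
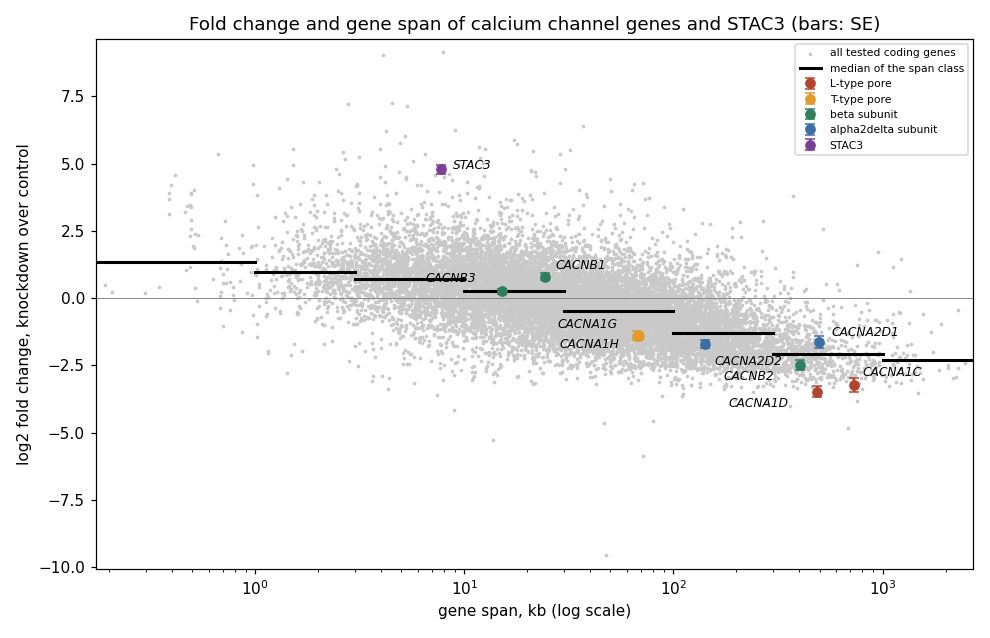
Log2 fold change (knockdown over control) against gene span in kb (log scale), with every tested coding gene in grey, the median of each span class as a black line and the 10 genes in colour with SE bars. Relative to the median of its span class, STAC3 stands at 4.08, CACNA1D at -1.42, CACNA1C at -1.18 and CACNB3 at -0.02.

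The knockdown libraries differed in how far the falling genes fell. Of the 7 falling genes, 6 were highest in knockdown replicate 2 and all 7 were lowest in replicate 4. The range over the knockdown libraries (highest over lowest) was 3.21-fold for CACNA1C, 2.62-fold for CACNA2D1 and 2.25-fold for CACNB2, against 1.096-fold, 1.19-fold and 1.36-fold in control libraries. CACNB3 spread least among the knockdown libraries, 1.08-fold, against 1.33-fold in control libraries. With knockdown replicates 1 and 2 left out together, a choice made after seeing the data, 7 genes still passed as lower and 3 as higher.

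Genes whose profile over the 10 libraries was most like that of a channel gene were sought by the root mean square difference of log2(CPM + 0.5) values, each gene centred on its own mean. Closest to CACNA1C among 14512 genes were SIK3, a kinase gene (0.0833), ARHGAP26 (0.0927) and FHOD3, a formin of the heart sarcomere (0.105). Closest to CACNA1D were the ephrin receptor gene EPHB2 (0.186), TRAF3, a signalling adaptor gene (0.209), and SORCS1, a sorting receptor gene (0.219). The nearest to STAC3 were DYNLT2, a dynein light chain gene (0.193), RNF139-DT (0.199) and TH, tyrosine hydroxylase (0.214). The 6 genes near the L-type pores span 134 to 591 kb and the 3 near STAC3 span 7.89 to 12.1 kb. TH had a mean of 7.67 CPM in knockdown and 0.011 CPM in control libraries, so its likeness rests on the added 0.5 CPM.

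Of the 19 other genes of the channel family, 10 were tested, and 3 rose and 5 fell (median log2 fold change -0.89). Among all tested genes 40.1% passed as higher and 39.6% as lower. CACNG6, a gamma subunit gene of striated muscle, rose 12.8-fold. It had 27.4, 19.3, 25.1, 33.7 and 27.6 CPM in knockdown libraries, against 2.16, 1.86, 1.55, 2.15 and 2.64 CPM in control libraries (log2 fold change 3.68 ± 0.177 SE, adjusted p = 1.71e-08). Like STAC3, it was lowest in knockdown replicate 2. CACNG8, a gamma family gene known for AMPA receptors in brain, rose to 5.197 ± 0.793 CPM in knockdown, against 2.23 ± 0.349 CPM in control libraries, and the T-type pore CACNA1I to 0.426 ± 0.141 CPM in knockdown, against 0.122 ± 0.0502 CPM in control libraries (SD, n = 5 each). CACNA1B, the N-type pore of nerve terminals, fell to 2.55 ± 1.07 CPM in knockdown, against 15.7 ± 1.55 CPM in control libraries, which is 6.11-fold. STAC, a relative of STAC3 found in brain, went the other way from STAC3: it fell to 1.82 ± 0.537 CPM in knockdown, against 7.04 ± 0.428 CPM in control libraries. CACNB4, CACNA2D3 and the P/Q-type pore CACNA1A also fell (log2 fold changes -2.31, -2.11 and -1.13), from levels of at most 2.17 CPM in control libraries. CACNA1S and CACNG7 did not pass.

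Among 17 listed regulators of the channels, 15 were tested, and 7 rose and 6 fell, with a median log2 fold change of 0.12. These counts are near the shares of all tested genes, of which 40.1% passed as higher and 39.6% as lower. The small GTPases RRAD, GEM and REM2, which bind beta subunits and inhibit the current of high-voltage channels, all rose. REM2 had 8.02, 6.37, 10.4, 11.6 and 10.4 CPM in knockdown libraries, against 1.68, 1.02, 1.43, 1.67 and 1.62 CPM in control libraries (log2 fold change 2.65 ± 0.197 SE, adjusted p = 2.1e-07). RRAD, a member of this family found in heart, had 65.5, 165, 80.9, 87.4 and 68.9 CPM in knockdown libraries, against 44.002, 57.3, 42.5, 41.1 and 21.4 CPM in control libraries, a 2.27-fold rise (adjusted p = 0.00208). GEM rose 1.77-fold with overlap between the groups. CBARP, which takes beta subunits away from the pore, and AKAP5, an anchor of protein kinase A, rose 2.17-fold and 2.28-fold.

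The falling regulators were NEDD4L (3.46-fold lower), a ubiquitin ligase, BIN1 (3.22-fold), which gathers L-type channels at T-tubules, CAMK2D (2.19-fold), the calcium/calmodulin kinase of heart, AKAP7 (1.88-fold), another anchor of protein kinase A, AHNAK (1.77-fold), a large protein that binds the beta subunit, and PRKACA (1.41-fold), the catalytic subunit of protein kinase A. NEDD4L and CAMK2D (log2 fold changes -1.79 and -1.13) are in the span class of 300 to 1000 kb, with a median of -2.06. AKAP7 and AHNAK (-0.91 and -0.83) are in that of 100 to 300 kb, with a median of -1.30. All of these fell by less than their class medians. BIN1 (-1.69) fell further than the median of -0.48 of genes of 30 to 100 kb. PRKACA (-0.49) is in the class of 10 to 30 kb, with a median of 0.27. The calmodulin genes CALM3 and CALM2 rose 1.85-fold and 1.16-fold. The call of CALM2 was lost in 7 of 20 other settings, the replicate block among them.

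**Figure D4:**
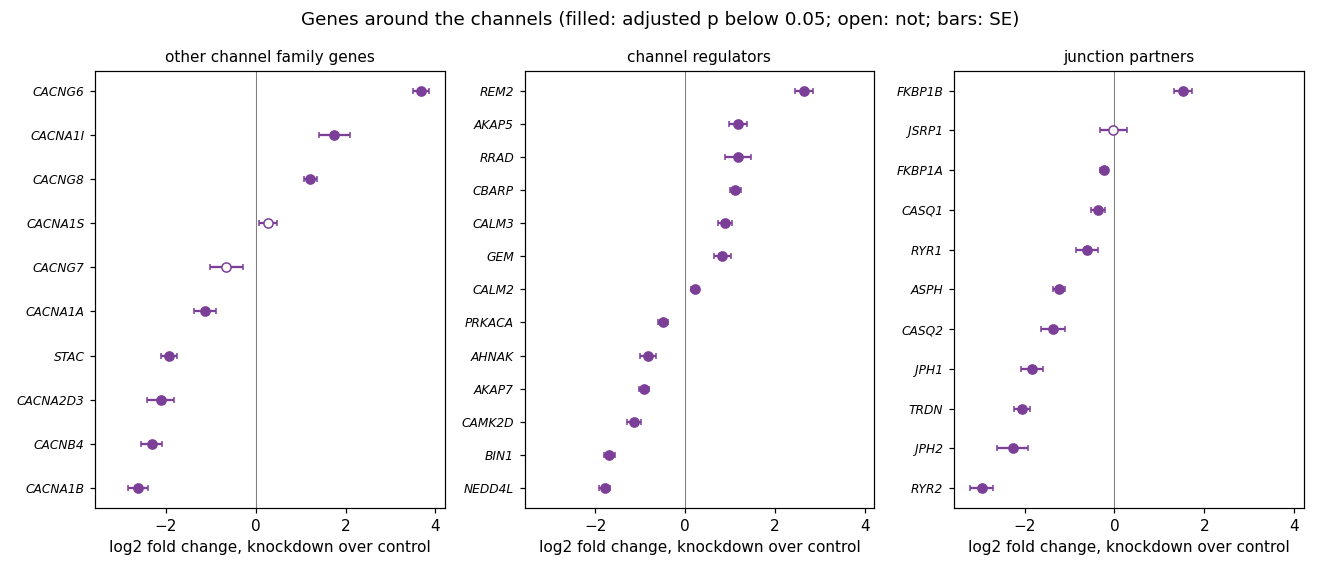
Log2 fold change (knockdown over control) with SE bars of tested genes described here in 3 lists: other channel family genes, channel regulators and partners at the junction with the sarcoplasmic reticulum. Filled points passed edgeR's test at an adjusted p below 0.05. CACNG6 (3.68) and REM2 (2.65) lie furthest to the right, and RYR2 (-2.96) and CACNA1B (-2.61) furthest to the left.

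At the junction where L-type channels face the calcium store, 9 of 11 listed genes fell and 1 rose (median log2 fold change -1.23). Over all tested genes 39.6% passed as lower and 40.1% as higher. RYR2, the release channel of heart, had 130, 238, 107, 73.3 and 127 CPM in knockdown libraries, against 979, 1037, 1069, 1065 and 1091 CPM in control libraries, a 7.76-fold fall (log2 fold change -2.96 ± 0.26 SE, adjusted p = 6.89e-07). As for CACNA1C, replicate 2 was the highest knockdown library and replicate 4 the lowest. JPH2 and JPH1, which tether the store to the surface membrane, fell 4.81-fold and 3.57-fold (JPH2 log2 fold change -2.27, and -2.89 with knockdown replicates 1 and 2 left out). TRDN, CASQ2 and ASPH, proteins of the store side of the junction, fell 4.17-fold, 2.57-fold and 2.35-fold. These genes differ in span. RYR2 and TRDN (log2 fold changes -2.96 and -2.06) are in the class of 300 to 1000 kb, with a median of -2.06. ASPH (-1.23) is in that of 100 to 300 kb, with a median of -1.30. JPH2, JPH1 and CASQ2 (-2.27, -1.835 and -1.36) are in that of 30 to 100 kb, with a median of -0.48. FKBP1B, which binds RYR2, rose to 10.045 ± 2.73 CPM in knockdown, against 3.49 ± 0.659 CPM in control libraries (SD, n = 5 each, 2.87-fold). RYR1, CASQ1 and FKBP1A fell by less (log2 fold changes -0.61, -0.36 and -0.24), and these calls were lost in 6, 12 and 5 of 20 other settings, so that 6 of the 11 genes passed as lower under upper-quartile scaling or without knockdown replicate 5. JSRP1, a skeletal muscle partner of the L-type channel, had 0.86 ± 0.32 CPM in knockdown and 0.865 ± 0.206 CPM in control libraries.

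Markers of the other cell types such a culture could hold did not move as one. Their counts are read beside the 40.1% of all tested genes that passed as higher and the 39.6% as lower. The 6 pacemaker markers had 2 genes higher and 3 lower, with HCN4, the main pacemaker current gene, at 200 ± 54.2 CPM in knockdown and 305 ± 12.9 CPM in control libraries, and TBX3, a pacemaker transcription factor, at 42.9 ± 12.6 CPM in knockdown and 19.4 ± 2.11 CPM in control libraries (SD, n = 5 each). All 4 smooth muscle markers fell, to a summed 474 to 870 CPM in knockdown, against 1144 to 2385 CPM in control libraries, with overlap between the groups for CNN1 and TAGLN. The call of CNN1 was lost with knockdown replicates 1 and 2 left out (log2 fold change -0.66, adjusted p = 0.0748). Summed neural markers were at 10.6 to 11.6 CPM in knockdown and 15.9 to 17.9 CPM in control libraries. SNAP25, SYT1 and DCX fell, but SYP rose (1.96 CPM in knockdown, 0.375 CPM in control libraries). Endothelial markers were at 8.23 to 16.3 CPM in knockdown and 29.2 to 49.9 CPM in control libraries, most of it KDR. TEK also fell, VWF did not pass, and PECAM1 and CDH5 had too few counts to be tested. Stromal markers were at 943 to 1104 CPM in knockdown and 1259 to 1378 CPM in control libraries. Of 8 tested, 5 passed as lower (3 under upper-quartile scaling), COL1A2 rose and COL1A1 did not pass (371 CPM in knockdown, 376 CPM in control libraries). The 2 tested pluripotency markers, DPPA4 and LIN28A, rose, and that list summed to 3.06 to 5.08 CPM in knockdown and 0.203 to 1.08 CPM in control libraries, and endoderm markers to 10.8 to 19.8 CPM in knockdown and 5.43 to 6.92 CPM in control libraries, most of it APOA1. POU5F1, a defining pluripotency gene, had 16 counts in all knockdown and 19 in all control libraries. The part of these cell types in the channel genes' changes was not tested.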

How the data were processed

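Gene counts of 10 libraries of total RNA were used. Per the labels, a stranded total RNA kit was used. The authors' steps, per the submitters' processing notes, were trimming with Trim Galore 0.65, alignment by STAR 2.7.0 to GRCh38 and counting per gene by HTSeq, with GENCODE release 38 named in the design text. The sources used here give neither the HTSeq version nor its strand setting. The deposited values are raw counts, and the scaling to CPM and gene length in the design text was not applied to them. Sample titles gave the groups and replicate numbers, and 0 columns were left unmapped.

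Names, spans and exons came from GENCODE release 44 by identifier. Of 78932 identifiers 61481 matched, and the other 17451 held 0.25% to 0.408% of a library's counts and were kept without a name. Scaling used trimmed means of M-values, and counts were tested in edgeR 4.0.16 (R 4.3.3) with filterByExpr, robust dispersions, group as the only term and Benjamini-Hochberg adjustment over 21033 genes, threshold 0.05. SE is the log2 fold change over the square root of F. The common coefficient of variation that edgeR estimated between libraries of a group was 19.2%. Every pair of libraries differed by more than sampling noise (chi-square per degree of freedom at least 4.43). The test was also run on simulated counts in which few genes changed and both groups had the same spread. It was not tried on counts where, as here, 79.7% of genes pass and the spread can differ between groups. Shares and orders of levels are descriptions without a test.

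The genes and lists were chosen with earlier results of these data known. Named genes are the 10 members, genes that overlap them, the nearest coding genes of STAC3 and CACNA1D, tested genes of the 3 lists around the channels, cell type markers, and the 3 genes (mean of at least 1 CPM) closest in profile to CACNA1C, CACNA1D and STAC3. Alternatives were 2 other tests (DESeq2 1.42.0 and voom in limma 3.58.1), scaling by upper quartiles or by the size factors of DESeq2, a filter of 1 count or of 1 CPM on average, dispersions without the robust option, removal of genes of the mitochondrial genome, replicate number as a block, leaving out each library, knockdown replicates 3 to 5 alone (added after seeing the data), and another transcript length. Some listed genes are counted but not reported here by name. Figures were drawn with matplotlib 3.10.9.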

Additional observations from a re-analysis of the deposited data

Results flagged for a closer look

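In 3 of the 20 sets of 5 values (10 genes in 2 groups), the highest library stood further from the rest than Dixon's 95% limit of 0.71 of the range. All 3 were knockdown replicate 2. CACNA1C had 93.7 CPM there, against 46.7 CPM in the next knockdown library (0.729 of the range). CACNA1H had 19.3 CPM there, against 13.9 CPM in the next (0.848 of the range), and CACNA2D1 had 28.0 CPM, against 13.8 CPM (0.823 of the range). Chance alone flags about 1 in 20 such sets, and genes of 1 library are not independent of each other. Without knockdown replicate 2 the log2 fold changes were -3.58, -1.54 and -1.95, against -3.24, -1.41 and -1.63 with it.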

How the results depend on the processing

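For the 10 genes, 195 of 200 refits kept the direction and the side of the threshold, and 0 changed direction. The 5 exceptions were all CACNB3, whose rise did not pass without a filter (log2 fold change 0.22) or without control replicate 1, 2, 3 or 4 (0.17, 0.24, 0.23 and 0.23). Over all settings the log2 fold change was -3.64 to -3.06 for CACNA1C, -3.73 to -3.28 for CACNA1D, -2.73 to -2.28 for CACNB2, 0.64 to 1.00 for CACNB1 and 4.71 to 4.99 for STAC3. Between 13706 and 20167 genes passed (16773 in the analysis reported, 16361 to 17650 with 1 library left out). With the replicate number as a block 16425 genes passed, and 7 of the 10 genes were lower and 3 higher, as without it. Same-numbered libraries deviated together for replicates 2 and 3 (correlations 0.271 and 0.163, each best with its own number) and not for replicates 1, 4 and 5 (-0.256, -0.033 and -0.0525), so the libraries were not treated as pairs. Upper-quartile scaling moved the median gene by 0.20. The difference in the CACNB2 share (knockdown minus control) was -49.8 to -46.6 percentage points and that in the L-type share of the pores -32.7 to -29.6. The 10 genes had at least 17 counts in every library. The lowest counts were those of STAC3 in control libraries (118 in all), so the size of its rise rests on a low control level. Some other named genes also had few counts, such as CACNA1I, with 82 in all knockdown and 24 in all control libraries.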
